A study of Homo sapiens with 12 samples.

Results

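The genes described here are 47 members of the DNA replication machinery, taken by symbol from a list of origin licensing, helicase, polymerase, clamp and fork genes, out of 23368 gene symbols counted in the series. All 47 symbols were present in the count tables of both times, and all 47 passed the filter on low counts in every fit. They were measured in SUDHL6, an established human line of germinal centre type diffuse large B-cell lymphoma. The 4 groups, with 3 libraries each, were cells given 200 nM GSK591 for 24 h, cells given vehicle (0.01% DMSO) for 24 h, cells given 200 nM GSK591 for 96 h and cells given vehicle for 96 h. GSK591 is a small molecule that inhibits PRMT5, an enzyme that places symmetric dimethyl marks on arginines. Poly(A)-selected RNA was sequenced, and the values are reads per gene. CPM, the usual depth-scaled read count of a gene, is given after TMM scaling of all 12 libraries together. The samples come from 1 cell line, and the labels do not say whether the 3 samples of a group were separate cultures, so p-values reflect the scatter among these libraries and may measure technical variation.

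DNA replication starts at origins that are prepared, or licensed, in the G1 phase of the cell cycle. The origin recognition complex (ORC) binds DNA and, with CDC6 and CDT1, loads the ring-shaped helicase formed by MCM2 to MCM7. At the start of S phase the kinase CDC7 with its activator DBF4 helps CDC45 and the GINS complex join that ring, which makes the active helicase. DNA polymerase alpha with primase then lays primers, the RFC clamp loader puts the PCNA clamp on DNA, and polymerases delta and epsilon copy the strands. Many of these genes are textbook targets of the E2F transcription factors, whose activity rises as cells pass from G1 into S phase. Germinal centre B cells and the lymphomas derived from them divide fast.

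In 11 libraries total counts lay between 48477456 and 64363186, and the remaining one, the 96 h vehicle replicate 1, held 547893015. The biological coefficient of variation was 2.35% among the 24 h libraries and 8.19% among the 96 h libraries. PRMT5, the gene of the drug target, averaged 85.0 ± 1.65 CPM in GSK591-treated cells and 89.6 ± 4.96 CPM in vehicle-treated cells at 96 h (SD, n = 3 each) and was not called at either time. All 12 markers of B cells and germinal centre B cells were above 1 CPM in all 12 libraries. The 20 markers of other cell types (T cell, myeloid, fibroblast and epithelial) reached at most 1.25 CPM in any library, and 6 of them were at 0 in all 12. Summed over these 20 markers, the level was 1.54 to 2.79 CPM in the GSK591 libraries and 0.406 to 1.22 CPM in the vehicle libraries at 96 h. Replicate 2 stood apart from replicates 1 and 3 in both 96 h groups, and its values are given apart below.

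Since E2F factors are the textbook regulators of these genes, the promoters of the members were read for short E2F-type words, and stretches from 6 members are shown to make the later contrasts concrete. RefSeq (GRCh38.p14) promoters, from 250 bases before to 50 after a gene's start, were available for 41 of the 47 members. The words searched were TTTCCCGC, TTTCGCGC, TTTGCCGC and TTTGGCGC, on both strands, where a match on 1 strand can overlap a match on the other. Capitals mark the matches, and each sequence runs 5' to 3' on the strand of its gene. PCNA (chr20:5126637-5126696, minus strand), POLA2 (chr11:65261894-65261953, plus strand), GMNN (chr6:24775318-24775377, plus strand) and MCM7 (chr7:100101398-100101432, minus strand) were called lower with GSK591 at 96 h, CDC7 (chr1:91501029-91501100, plus strand) was not called and POLE (chr12:132687343-132687375, minus strand) was called higher.
PCNA: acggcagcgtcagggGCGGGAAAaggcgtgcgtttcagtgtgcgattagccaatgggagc
POLA2: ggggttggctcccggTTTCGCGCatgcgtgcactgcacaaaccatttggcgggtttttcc
GMNN: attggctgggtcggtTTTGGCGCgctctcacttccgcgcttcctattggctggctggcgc
MCM7: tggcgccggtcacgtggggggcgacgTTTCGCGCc
CDC7: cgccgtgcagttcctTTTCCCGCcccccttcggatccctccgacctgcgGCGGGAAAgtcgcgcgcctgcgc
POLE: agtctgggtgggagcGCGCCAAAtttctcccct
An E2F-type word was present in 22 of the 41 members (53.7%), against 3.99% of the 27305 genes in the promoter table. The CCAAT word was present in 25 of the 41 members (61.0%), against 39.7% of all genes in that table. The table holds genes whether or not they were expressed here, and base composition was not matched. The median log2 fold change at 96 h was -0.54 over the 22 members with an E2F-type word and -0.32 over the 19 without, with ranges of -0.94 to 0.20 and -1.26 to 0.37. CDC45, the member with the most negative change, had no such word in its 3 windows, and POLE, which rose, had 1. Of the 22 members with a word, 18 fell and 1 rose, and of the 19 without, 10 fell and 3 rose. A match describes these letters only, and a window without one says nothing about binding.

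At 96 h most replication genes were lower in GSK591-treated cells. Of the 47 members, 33 fell, 4 rose (ORC2, ORC5, POLE and RFC1) and 10 did not pass the test, which is edgeR's quasi-likelihood test with a Benjamini-Hochberg adjusted p under 0.05. Over all 13514 genes tested at 96 h, 19.6% were called lower and 20.7% higher. The median log2 fold change was -0.49 over the members and 0.00 over all genes. Values did not overlap between the groups for 38 members that were lower and 4 that were higher with GSK591, where the shares of all genes were 29.7% and 25%. Summed over the 47 members, 4294 ± 262 CPM were counted in GSK591-treated cells and 5607 ± 427 CPM in vehicle-treated cells (SD, n = 3 each). RNA from whole cultures cannot tell fewer cells that express a gene from less of its RNA per cell. With 1 library fewer, 2 of the 4 higher calls were left without vehicle replicate 1, 2 or 3 or GSK591 replicate 1, and 3 without GSK591 replicate 3. Where a call was lost, the log2 fold change was 0.25 to 0.38 for ORC5, 0.18 to 0.20 for POLE and 0.34 for RFC1, against 0.37, 0.20 and 0.34 with all 6 libraries. Of the calls, 25 of the 33 lower ones and 1 of the 4 higher ones (ORC2) held in all 15 alternative settings.

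At 24 h the members differed far less between GSK591-treated and vehicle-treated cells. Of the 47 members, 16 fell, 1 rose (ORC2) and 30 did not pass, while 7.29% of the 13173 genes tested were called lower and 7.44% higher. The 24 h libraries scattered less than the 96 h libraries, and smaller changes could be called among them. The median over the members was -0.06, the most negative value was -0.24 (CDC45) and the most positive was 0.20 (ORC2). Values did not overlap between the groups for 17 members that were lower and 1 that was higher, where the shares of all genes were 16.2% and 15.7%. Summed over the members, 6472 ± 153 CPM were counted in GSK591-treated cells and 6726 ± 99.8 CPM in vehicle-treated cells (SD, n = 3 each). Each of the 16 members that fell at 24 h also fell at 96 h, when 33 of all 47 members fell. The like overlap over all genes was not counted. In 1 fit of all 12 libraries no member and 29 of 13665 genes were called at 24 h. At an unadjusted edgeR p under 0.05, 6 members were lower and 1 higher, and the share of all genes was not counted. Both times share each gene's estimate of spread in that fit, with a biological coefficient of variation of 5.90%, and CDC45 stayed at -0.24. The same fit called 38 members lower, 4 higher and 7392 of 13665 genes at 96 h. In the 24 h fits, members called lower numbered 7 without GSK591 replicate 1, 9 without vehicle replicate 2 and 10 without GSK591 replicate 3.

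**Figure D1:**
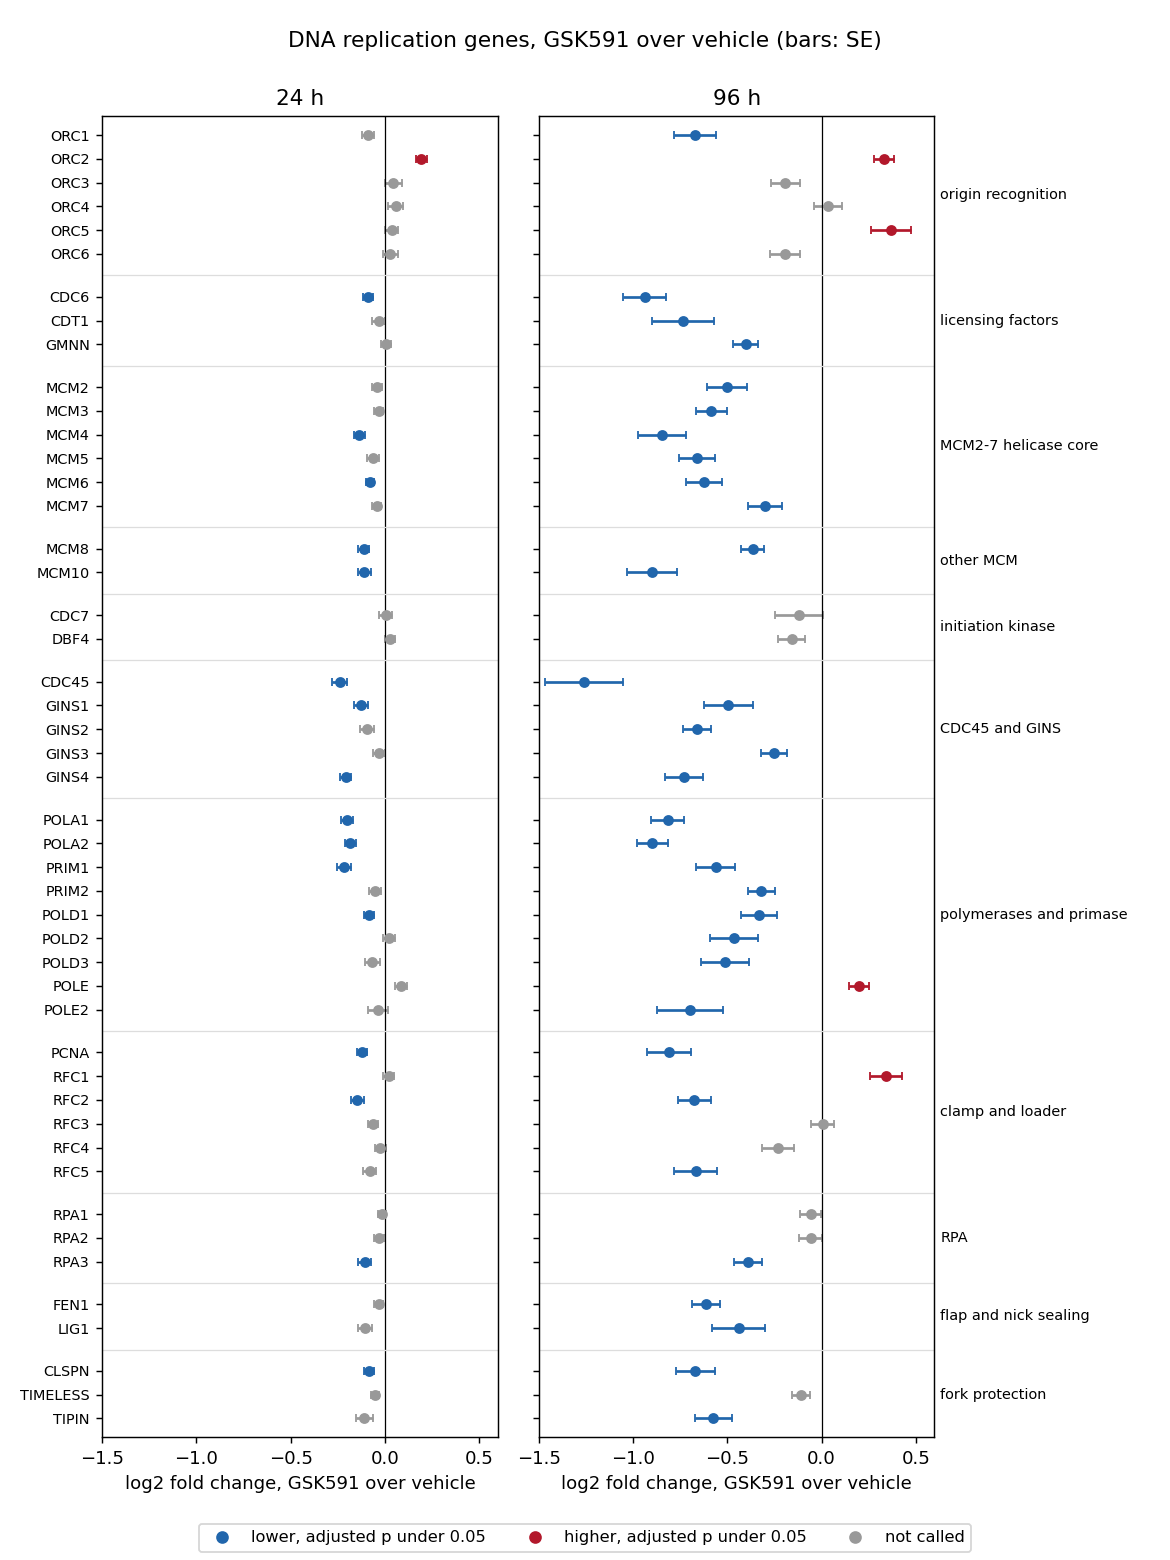
Log2 fold change of GSK591 over vehicle for the 47 DNA replication genes at 24 h (left) and 96 h (right), grouped by role, with bars for the standard error and colour for the edgeR call. The 24 h values lie between -0.24 and 0.20, and the 96 h values between -1.26 and 0.37, with ORC2, ORC5, POLE and RFC1 called higher at 96 h.

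The genes of the origin recognition complex had calls in both directions at 96 h. Of its 6 genes, at 96 h 1 fell (ORC1), 2 rose (ORC2 and ORC5) and 3 did not pass, with a median of -0.08. Over all genes tested, 19.6% were called lower and 20.7% higher at 96 h. With 6 genes, such counts are not far from those shares, and the split was not tested. ORC1 encodes the subunit that is degraded and made anew in each cell cycle, and its gene is a classical E2F target. No E2F-type word was found in the promoter windows of ORC1, ORC2 or ORC5, which says nothing about binding. ORC1 had 31.4, 40.8 and 34.3 CPM in the GSK591 libraries and 53.8, 65.3 and 52.9 CPM in the vehicle libraries at 96 h. Every GSK591 library was below every vehicle library (edgeR log2 fold change -0.67 ± 0.11 SE, adjusted p = 0.00293). The 24 h values were 69.8, 71.5 and 70.5 CPM in the GSK591 libraries and 75.5, 77.7 and 72.1 CPM in the vehicle libraries, which did not overlap either but missed the threshold (edgeR log2 fold change -0.09 ± 0.03 SE, adjusted p = 0.0543).

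ORC2, a core subunit that stays on chromatin through most of the cycle, went the other way. It had 74.1, 77.2 and 73.1 CPM in the GSK591 libraries and 60.3, 62.0 and 57.8 CPM in the vehicle libraries at 96 h, and 69.3, 67.1 and 71.0 CPM in the GSK591 libraries and 60.8, 58.5 and 61.8 CPM in the vehicle libraries at 24 h. At both times the GSK591 libraries lay above the vehicle libraries with no overlap (at 96 h edgeR log2 fold change 0.33 ± 0.05 SE, adjusted p = 0.00258, and at 24 h edgeR log2 fold change 0.20 ± 0.03 SE, adjusted p = 0.000366). ORC5, another core subunit, had 54.0, 38.3 and 48.8 CPM in the GSK591 libraries and 37.1, 37.3 and 35.7 CPM in the vehicle libraries at 96 h. GSK591 replicate 2 was close to the vehicle libraries, while the other GSK591 libraries stood well above them (edgeR log2 fold change 0.37 ± 0.11 SE, adjusted p = 0.0227). The ORC5 call was lost without any 1 of 5 libraries, with adjusted p between 0.0516 (without vehicle replicate 1) and 0.0800 (without GSK591 replicate 1), and kept without GSK591 replicate 2. At 24 h ORC5 had 42.3, 43.1 and 45.3 CPM in the GSK591 libraries and 42.4, 42.4 and 42.5 CPM in the vehicle libraries, which overlapped (edgeR log2 fold change 0.04 ± 0.03 SE, adjusted p = 0.503). ORC3 and ORC6 had values of -0.19 ± 0.08 and -0.19 ± 0.08 SE at 96 h (edgeR adjusted p = 0.0746 and 0.0766), and ORC4 had 0.03 ± 0.07 SE. ORC3 and ORC6 were each called lower in 5 of the 15 alternative settings at 96 h, among them the fit of all 12 libraries (adjusted p = 0.0164 and 0.0113).

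All 3 licensing genes fell at 96 h, with a median of -0.74. CDC6, the loader ATPase that works with ORC to place the MCM ring, had 30.5, 40.4 and 31.8 CPM in the GSK591 libraries and 63.7, 73.7 and 62.2 CPM in the vehicle libraries at 96 h. The highest GSK591 library was well below the lowest vehicle library (edgeR log2 fold change -0.94 ± 0.11 SE, adjusted p = 0.000954). At 24 h it had 98.9, 102 and 102 CPM in the GSK591 libraries and 106, 109.7 and 106 CPM in the vehicle libraries, a small difference with no overlap (edgeR log2 fold change -0.09 ± 0.03 SE, adjusted p = 0.0319). That 24 h call was lost without vehicle replicate 1 or 2 or GSK591 replicate 1 or 3, with adjusted p from 0.0548 to 0.163. CDT1, the partner that brings in the MCM ring, averaged 52.5 ± 13.6 CPM in GSK591-treated cells and 88.8 ± 10.3 CPM in vehicle-treated cells at 96 h (edgeR log2 fold change -0.74 ± 0.16 SE, adjusted p = 0.00875).

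GMNN encodes geminin, the inhibitor of CDT1 that blocks relicensing after origins have fired, and it fell least of the 3. It had 54.7, 59.6 and 59.3 CPM in the GSK591 libraries and 74.3, 84.3 and 73.4 CPM in the vehicle libraries at 96 h, with all GSK591 libraries below all vehicle libraries (edgeR log2 fold change -0.40 ± 0.07 SE, adjusted p = 0.00291). At 24 h it had 90.3, 91.4 and 89.3 CPM in the GSK591 libraries and 91.5, 88.4 and 89.8 CPM in the vehicle libraries, which overlapped (edgeR log2 fold change 0.01 ± 0.03 SE, adjusted p = 0.879).

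All 6 genes of the MCM2 to MCM7 helicase core fell at 96 h, with log2 fold changes between -0.85 (MCM4) and -0.30 (MCM7) and a median of -0.60. Together they held 1464 ± 159.8 CPM in GSK591-treated cells and 2162 ± 206 CPM in vehicle-treated cells at 96 h (SD, n = 3 each). MCM4 had 169, 229.9 and 187 CPM in the GSK591 libraries and 334, 409 and 324 CPM in the vehicle libraries at 96 h, with a wide gap between the groups (edgeR log2 fold change -0.85 ± 0.13 SE, adjusted p = 0.00191). At 24 h MCM4 had 482, 531 and 495 CPM in the GSK591 libraries and 551, 568 and 538 CPM in the vehicle libraries, again with no overlap (edgeR log2 fold change -0.13 ± 0.03 SE, adjusted p = 0.00367). MCM6 also fell at 24 h (edgeR log2 fold change -0.08 ± 0.02 SE, adjusted p = 0.0319), though that call was lost without vehicle replicate 1 or 2 or GSK591 replicate 1 (adjusted p = 0.0701, 0.124 and 0.202). The other 4 core genes did not pass at 24 h.

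MCM7, whose intron also hosts microRNA genes, had the smallest fall of the core. It had 403, 496 and 430.1 CPM in the GSK591 libraries and 522, 604 and 527 CPM in the vehicle libraries at 96 h. GSK591 replicate 2 came close to the lowest vehicle library, but the groups did not overlap (edgeR log2 fold change -0.30 ± 0.09 SE, adjusted p = 0.0286). This call was lost without vehicle replicate 2 or GSK591 replicate 1 or 3 (adjusted p = 0.105, 0.0867 and 0.0966). At 24 h MCM7 had 621, 665 and 634 CPM in the GSK591 libraries and 647, 672 and 659.8 CPM in the vehicle libraries, which overlapped (edgeR log2 fold change -0.04 ± 0.02 SE, adjusted p = 0.245). For MCM2, 32.0% of the exon bases in GENCODE (GRCh38) lie under exons of other genes, and without a stated strand setting their reads cannot be told apart.

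The other MCM genes, MCM8 and MCM10, fell at both times. MCM10 helps the assembled helicase start to unwind and does not belong to the ring. It had 19.2, 27.5 and 21.8 CPM in the GSK591 libraries and 40.5, 48.9 and 40.5 CPM in the vehicle libraries at 96 h, with no overlap (edgeR log2 fold change -0.90 ± 0.13 SE, adjusted p = 0.00188). At 24 h its values were 53.9, 59.5 and 56.2 CPM in the GSK591 libraries and 59.4, 63.2 and 60.4 CPM in the vehicle libraries, where GSK591 replicate 2 lay just above the lowest vehicle library (edgeR log2 fold change -0.11 ± 0.04 SE, adjusted p = 0.0450). Leaving out any of the 24 h libraries but GSK591 replicate 2 removed that call, with adjusted p from 0.0516 to 0.242. MCM8, which acts with MCM9 in recombination repair, had 70.5, 74.4 and 67.0 CPM in the GSK591 libraries and 90.2, 97.0 and 88.7 CPM in the vehicle libraries at 96 h. The groups did not overlap (edgeR log2 fold change -0.37 ± 0.06 SE, adjusted p = 0.00299). It had 81.2, 83.3 and 84.6 CPM in the GSK591 libraries and 90.6, 90.2 and 88.6 CPM in the vehicle libraries at 24 h, with no overlap either (edgeR log2 fold change -0.11 ± 0.03 SE, adjusted p = 0.00843). The 24 h call of MCM8 was lost without GSK591 replicate 1 (adjusted p = 0.0634).

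Neither gene of the initiation kinase was called at 96 h or at 24 h in the fits of 1 time, by edgeR, at an unadjusted p under 0.05 or by DESeq2. CDC7, the kinase that phosphorylates the MCM ring, had 45.9, 64.8 and 48.1 CPM in the GSK591 libraries and 55.2, 63.9 and 55.9 CPM in the vehicle libraries at 96 h. GSK591 replicate 2 was the highest of the 6 libraries, while GSK591 replicates 1 and 3 lay below every vehicle library (edgeR log2 fold change -0.12 ± 0.13 SE, adjusted p = 0.475). Without the replicate 2 libraries of both groups, CDC7 was called lower at 96 h (-0.24, adjusted p = 0.000268). DBF4, the activator of CDC7, had 90.2, 87.2 and 90.5 CPM in the GSK591 libraries and 96.4, 113 and 92.7 CPM in the vehicle libraries at 96 h, which did not overlap (edgeR log2 fold change -0.16 ± 0.07 SE, adjusted p = 0.111). In the edgeR fit of all 12 libraries DBF4 was called lower at 96 h (-0.17, adjusted p = 0.0238). At 24 h CDC7 had 47.4, 48.3 and 49.6 CPM in the GSK591 libraries and 48.8, 46.2 and 49.6 CPM in the vehicle libraries. DBF4 had 101, 100.2 and 106 CPM in the GSK591 libraries and 102, 98.9 and 100.4 CPM in the vehicle libraries at 24 h. Both genes overlapped between the groups at 24 h (0.01 ± 0.03 and 0.03 ± 0.03 SE on the log2 scale).

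CDC45 and the 4 GINS genes all fell at 96 h, with a median of -0.66. CDC45, the factor that completes the active helicase and is thought to limit how many origins fire, had the most negative change of the 47 members. It had 7.63, 14.2 and 8.98 CPM in the GSK591 libraries and 23.2, 29.1 and 23.2 CPM in the vehicle libraries at 96 h. Every GSK591 library was well below every vehicle library, and GSK591 replicate 2 was the highest of its group (edgeR log2 fold change -1.26 ± 0.21 SE, adjusted p = 0.00272). It was also the most negative member at 24 h, with 25.6, 26.1 and 25.4 CPM in the GSK591 libraries and 29.8, 31.3 and 30.1 CPM in the vehicle libraries (edgeR log2 fold change -0.24 ± 0.04 SE, adjusted p = 0.000300).

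Among the GINS genes, GINS4 and GINS2 fell most at 96 h (-0.73 ± 0.10 and -0.66 ± 0.07 SE), followed by GINS1 (-0.49 ± 0.13 SE). GINS3 fell least. It had 32.4, 33.7 and 34.2 CPM in the GSK591 libraries and 38.2, 44.4 and 38.3 CPM in the vehicle libraries at 96 h, with no overlap (edgeR log2 fold change -0.25 ± 0.07 SE, adjusted p = 0.0208). The GINS3 call was lost without vehicle replicate 2 or GSK591 replicate 1 or 3 (adjusted p = 0.0553, 0.0661 and 0.0558), and that of GINS1 without the same libraries (adjusted p = 0.0773, 0.0516 and 0.0690). At 24 h GINS3 had 44.4, 44.6 and 46.6 CPM in the GSK591 libraries and 46.0, 46.1 and 46.3 CPM in the vehicle libraries, which overlapped, while GINS4 and GINS1 fell (-0.21 ± 0.03 and -0.13 ± 0.04 SE, edgeR adjusted p = 0.000141 and 0.0257). The GINS1 call at 24 h was lost without GSK591 replicate 1 or 3 or vehicle replicate 1 or 2 (adjusted p from 0.0528 to 0.142). Exons of other genes cover 23.6% of the GINS4 exon bases and 16.5% of those of GINS3.

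Of the 9 polymerase and primase genes, 8 fell and 1 rose at 96 h, with a median of -0.51. The polymerase alpha-primase genes, which make the primers, all fell at 96 h. POLA2, the regulatory subunit of polymerase alpha, had 30.7, 35.0 and 32.5 CPM in the GSK591 libraries and 60.1, 68.7 and 56.3 CPM in the vehicle libraries at 96 h. The groups were far apart and the spread within each was small (edgeR log2 fold change -0.90 ± 0.08 SE, adjusted p = 0.000406). It had 67.4, 69.5 and 67.7 CPM in the GSK591 libraries and 76.4, 79.0 and 76.8 CPM in the vehicle libraries at 24 h, again with no overlap (edgeR log2 fold change -0.18 ± 0.03 SE, adjusted p = 0.000243). The catalytic subunit POLA1 fell by a like amount (-0.82 ± 0.09 SE at 96 h and -0.20 ± 0.03 SE at 24 h), and so did PRIM1 at 24 h (-0.22 ± 0.04 SE), with -0.56 ± 0.10 SE at 96 h. PRIM2, the other primase subunit, fell at 96 h (-0.32 ± 0.07 SE) and did not pass at 24 h. Other genes overlap 53.7% of the POLA2 exon bases and 34.8% of those of PRIM1.

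The polymerase delta genes POLD1, POLD2 and POLD3 fell at 96 h by smaller amounts than POLA1 and POLA2 (-0.33 ± 0.10, -0.46 ± 0.13 and -0.51 ± 0.13 SE). POLE2, the B subunit of polymerase epsilon, fell to 7.05 ± 1.82 CPM in GSK591-treated cells, against 11.7 ± 1.44 CPM in vehicle-treated cells at 96 h (edgeR log2 fold change -0.70 ± 0.18 SE, adjusted p = 0.0137). POLE, the catalytic subunit of the same enzyme, rose. It had 183, 194 and 178 CPM in the GSK591 libraries and 163, 166 and 159.8 CPM in the vehicle libraries at 96 h. All GSK591 libraries were above all vehicle libraries by a narrow margin (edgeR log2 fold change 0.20 ± 0.05 SE, adjusted p = 0.0197). At 24 h POLE had 171, 176 and 169 CPM in the GSK591 libraries and 152, 165 and 169 CPM in the vehicle libraries, which overlapped (edgeR log2 fold change 0.08 ± 0.03 SE, adjusted p = 0.0761).

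Several of these polymerase calls were lost at 96 h when 1 library was left out, with folds of the same sign. Those of POLD2, POLD3 and POLE2 were lost without vehicle replicate 2 (adjusted p = 0.0837, 0.0592 and 0.0611) and without GSK591 replicate 3 (adjusted p = 0.0724, 0.0561 and 0.0550), and that of POLD2 also without GSK591 replicate 1 (adjusted p = 0.0516). POLD1 was no longer called without vehicle replicate 2 or 3 or GSK591 replicate 1 or 3 (adjusted p from 0.0680 to 0.0923). The log2 fold changes in these fits were -0.33 to -0.26 for POLD1, -0.42 to -0.36 for POLD2, -0.47 to -0.41 for POLD3 and -0.66 to -0.61 for POLE2. The rise of POLE was lost without vehicle replicate 1 or 3 or GSK591 replicate 1 (adjusted p = 0.0773, 0.0858 and 0.0516), as it was when low counts were not filtered out (adjusted p = 0.0515). At 24 h POLD1 fell (edgeR log2 fold change -0.09 ± 0.03 SE, adjusted p = 0.0400), a call lost without GSK591 replicate 1 or 3 or vehicle replicate 2 or 3 (adjusted p from 0.0887 to 0.209).

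The clamp and loader genes had calls in both directions at 96 h. Of the 6 genes, 3 fell (PCNA, RFC2 and RFC5), 1 rose (RFC1) and 2 did not pass at 96 h, with a median of -0.45. The shares of all genes were 19.6% lower and 20.7% higher, and the split was not tested. PCNA, the sliding clamp that holds polymerases on DNA and a common proliferation marker, had 89.0, 119.7 and 101 CPM in the GSK591 libraries and 169, 209.9 and 171 CPM in the vehicle libraries at 96 h. The highest GSK591 library was far below the lowest vehicle library (edgeR log2 fold change -0.81 ± 0.12 SE, adjusted p = 0.00188). It had 245, 264 and 257 CPM in the GSK591 libraries and 275, 286 and 271 CPM in the vehicle libraries at 24 h, also with no overlap (edgeR log2 fold change -0.12 ± 0.03 SE, adjusted p = 0.00620). The 24 h call of PCNA was lost without GSK591 replicate 1 (adjusted p = 0.0560).

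RFC1, the large subunit of the clamp loader, had 285, 219 and 265 CPM in the GSK591 libraries and 207, 204 and 202 CPM in the vehicle libraries at 96 h. GSK591 replicate 2 was just above the vehicle libraries, and the other GSK591 libraries were much higher (edgeR log2 fold change 0.34 ± 0.08 SE, adjusted p = 0.0127). Without vehicle replicate 2 RFC1 missed the threshold (adjusted p = 0.0512). At 24 h RFC1 had 186, 178 and 194 CPM in the GSK591 libraries and 188, 180.2 and 183 CPM in the vehicle libraries, which overlapped (edgeR log2 fold change 0.02 ± 0.03 SE, adjusted p = 0.693). The small loader subunits RFC2 and RFC5 fell at 96 h (-0.68 ± 0.09 and -0.67 ± 0.11 SE), and RFC2 also at 24 h (-0.15 ± 0.03 SE). RFC3 and RFC4 were not called at 96 h (0.01 ± 0.06 and -0.23 ± 0.09 SE, edgeR adjusted p = 0.952 and 0.0590). RFC4 was called lower in 6 of the 15 alternative settings, among them DESeq2 (adjusted p = 0.0459), no filter on low counts (edgeR adjusted p = 0.0276) and the edgeR fit of all 12 libraries (adjusted p = 0.00651), and RFC3 in 0 of 15.

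RPA, the complex that coats single-stranded DNA, had the sub-group median nearest to 0 at 96 h (-0.06). Of its 3 genes 1 fell (RPA3, the smallest subunit) and 2 did not pass at 96 h. RPA3 had 32.6, 34.1 and 37.5 CPM in the GSK591 libraries and 43.8, 50.1 and 44.1 CPM in the vehicle libraries at 96 h, with no overlap (edgeR log2 fold change -0.39 ± 0.07 SE, adjusted p = 0.00463). It also fell at 24 h, with 39.0, 39.9 and 39.7 CPM in the GSK591 libraries and 42.8, 43.7 and 41.3 CPM in the vehicle libraries (edgeR log2 fold change -0.11 ± 0.03 SE, adjusted p = 0.0387), a call lost without GSK591 replicate 1 or 3 or vehicle replicate 1 or 2 (adjusted p from 0.0853 to 0.169). RPA1, the large DNA-binding subunit, had 252, 229 and 257 CPM in the GSK591 libraries and 256, 267 and 252 CPM in the vehicle libraries at 96 h. The groups overlapped (edgeR log2 fold change -0.06 ± 0.06 SE, adjusted p = 0.441). At 24 h RPA1 had 308, 315 and 312 CPM in the GSK591 libraries and 317, 318 and 311 CPM in the vehicle libraries, which also overlapped (edgeR log2 fold change -0.02 ± 0.02 SE, adjusted p = 0.652). RPA2 had -0.06 ± 0.06 SE at 96 h (edgeR adjusted p = 0.464).

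Both genes that finish Okazaki fragments fell at 96 h. FEN1, the flap nuclease that trims displaced ends, had 86.0, 99.3 and 96.2 CPM in the GSK591 libraries and 137, 158 and 141 CPM in the vehicle libraries at 96 h. The groups were clearly separate (edgeR log2 fold change -0.61 ± 0.07 SE, adjusted p = 0.000954). At 24 h FEN1 had 189.8, 198 and 196 CPM in the GSK591 libraries and 197, 200.1 and 199.8 CPM in the vehicle libraries, which overlapped (edgeR log2 fold change -0.03 ± 0.02 SE, adjusted p = 0.416). LIG1, the ligase that seals the remaining nicks, had 69.6, 105 and 77.6 CPM in the GSK591 libraries and 108, 127 and 112 CPM in the vehicle libraries at 96 h. GSK591 replicate 2 was close to the lowest vehicle library, and the groups did not overlap (edgeR log2 fold change -0.44 ± 0.14 SE, adjusted p = 0.0350). The LIG1 call at 96 h was lost without vehicle replicate 2 or 3 or GSK591 replicate 1 or 3 (adjusted p from 0.0586 to 0.135). It had 106, 117 and 105 CPM in the GSK591 libraries and 113, 122 and 119 CPM in the vehicle libraries at 24 h, which overlapped (edgeR log2 fold change -0.11 ± 0.04 SE, adjusted p = 0.0511).

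Among the fork protection genes, CLSPN and TIPIN fell at 96 h and TIMELESS did not pass. CLSPN encodes claspin, which links stalled forks to the checkpoint kinase CHK1. It had 43.7, 55.1 and 44.0 CPM in the GSK591 libraries and 73.1, 84.2 and 72.9 CPM in the vehicle libraries at 96 h, with a clear gap (edgeR log2 fold change -0.67 ± 0.10 SE, adjusted p = 0.00217). At 24 h it had 92.7, 96.5 and 96.2 CPM in the GSK591 libraries and 103, 100.1 and 99.8 CPM in the vehicle libraries, with no overlap (edgeR log2 fold change -0.08 ± 0.03 SE, adjusted p = 0.0404). Leaving out any of the 24 h libraries but GSK591 replicate 2 removed the 24 h call of CLSPN (adjusted p from 0.0508 to 0.204). TIMELESS and TIPIN form a pair that travels with the fork. TIMELESS had 332, 323 and 317 CPM in the GSK591 libraries and 355, 355 and 349 CPM in the vehicle libraries at 96 h. These values did not overlap but were close (edgeR log2 fold change -0.11 ± 0.05 SE, adjusted p = 0.105). TIMELESS was called lower in 2 of the 15 alternative settings, the edgeR fit of all 12 libraries (adjusted p = 0.00666) and the one without both replicate 2 libraries. It had 321, 321 and 325 CPM in the GSK591 libraries and 332, 332 and 339 CPM in the vehicle libraries at 24 h, again close and without overlap (edgeR log2 fold change -0.05 ± 0.02 SE, adjusted p = 0.106). TIPIN averaged 11.6 ± 1.11 CPM in GSK591-treated cells and 17.5 ± 1.52 CPM in vehicle-treated cells at 96 h (edgeR log2 fold change -0.57 ± 0.10 SE, adjusted p = 0.00305).

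**Figure D2:**
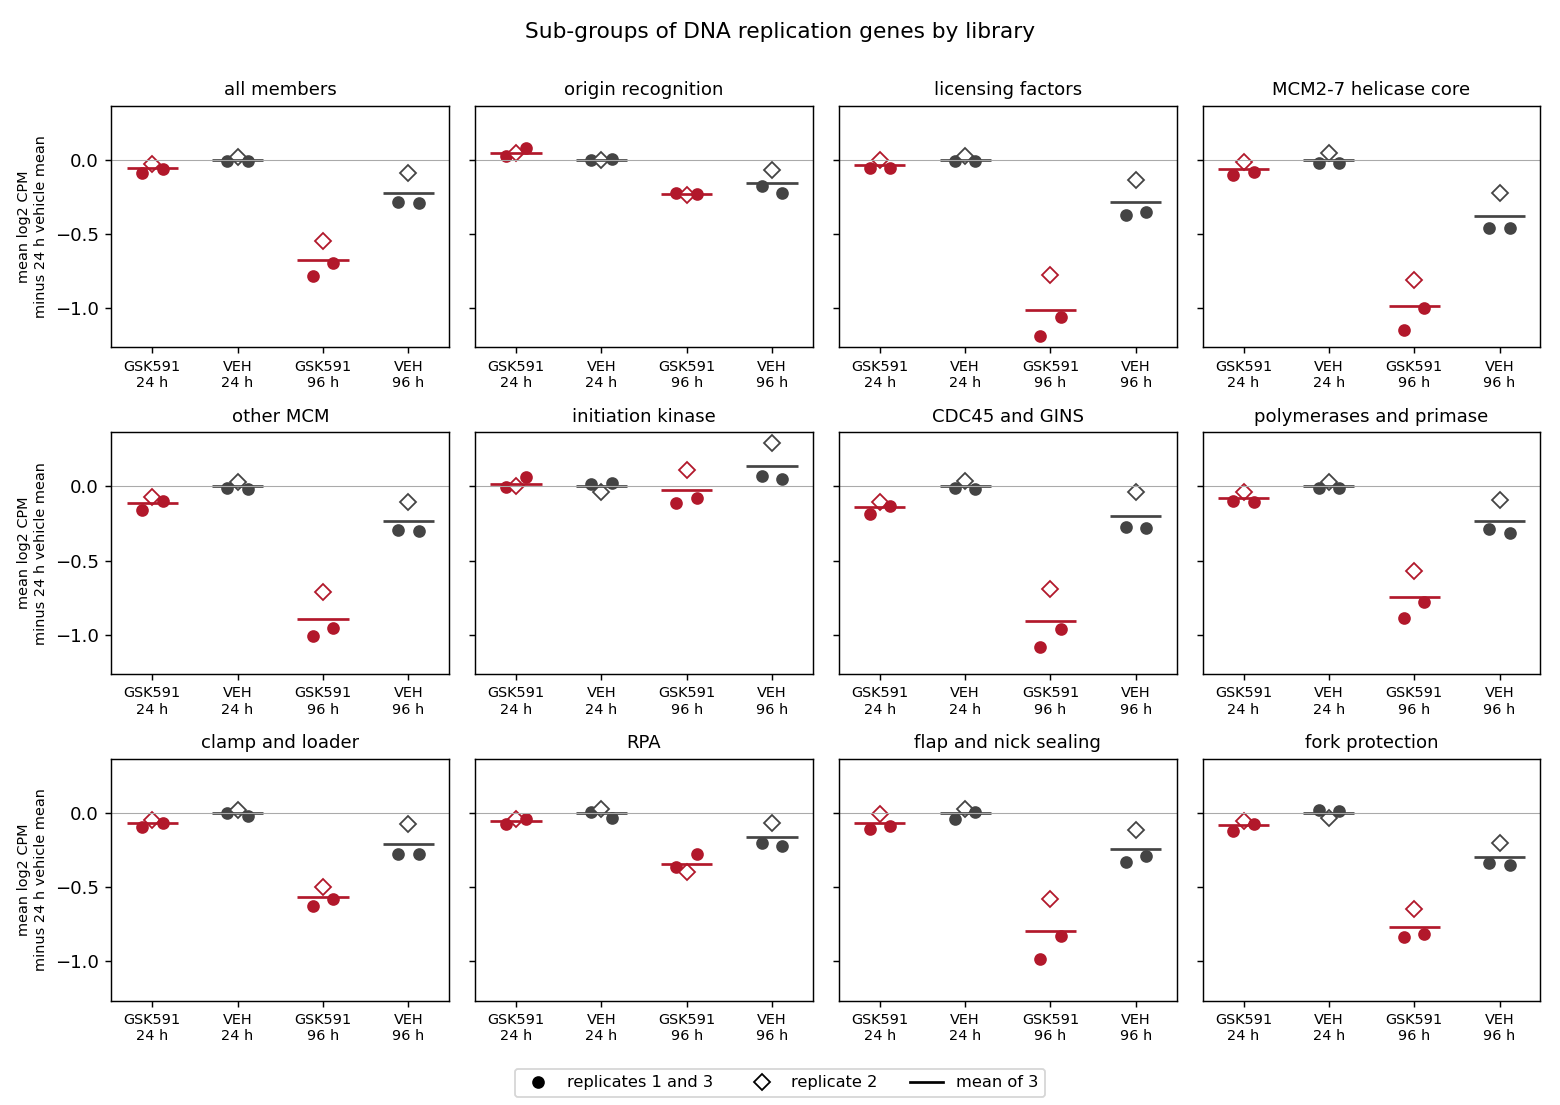
Mean log2 CPM of each sub-group in each library, relative to the mean of the 24 h vehicle libraries (y axis), for the 4 groups (x axis); filled circles are replicates 1 and 3, open diamonds replicate 2 and lines the mean of 3. At 96 h the licensing factors lie lowest in GSK591-treated cells, while the means of the 2 groups lie closest for the origin recognition genes.

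Set side by side by sub-group, the median log2 fold changes at 96 h were -0.74 for the licensing factors, -0.66 for CDC45 and GINS, -0.63 for MCM8 and MCM10, -0.60 for the helicase core, -0.57 for fork protection, -0.53 for FEN1 and LIG1, -0.51 for the polymerases, -0.45 for clamp and loader, -0.14 for the initiation kinase, -0.08 for ORC and -0.06 for RPA. Differences between sub-groups were not tested. Averaged over the 3 licensing genes, log2 CPM relative to the 24 h vehicle mean was -1.19, -0.78 and -1.06 in the GSK591 libraries and -0.38, -0.14 and -0.35 in the vehicle libraries at 96 h. Over the 6 ORC genes the same measure was -0.22, -0.24 and -0.23 in the GSK591 libraries and -0.18, -0.07 and -0.22 in the vehicle libraries at 96 h. The licensing means were thus apart between the groups, and the ORC means of GSK591 and vehicle were close in replicates 1 and 3.

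Genes whose products work in 1 complex or 1 reaction parted within a library, which is a comparison that the scaling of libraries does not touch. The 5 pairs below were chosen after their values were seen and carry no test. Each ratio is of counts per exon length. The ratio of ORC1 to ORC2 was 0.579, 0.722 and 0.641 in the GSK591 libraries and 1.22, 1.44 and 1.25 in the vehicle libraries at 96 h. It was 1.38, 1.46 and 1.36 in the GSK591 libraries and 1.70, 1.81 and 1.60 in the vehicle libraries at 24 h, so this ratio was lower with GSK591 at both times without overlap. For POLE2 over POLE the 96 h ratios were 0.105, 0.164 and 0.132 with GSK591 and 0.243, 0.282 and 0.232 with vehicle. PCNA over RFC1 was 1.04, 1.81 and 1.27 with GSK591 and 2.71, 3.43 and 2.82 with vehicle at 96 h. Replicate 2 had the highest of these 3 ratios in each 96 h group, and every GSK591 ratio was below every vehicle ratio at that time. At 24 h the groups overlapped for POLE2 over POLE and for PCNA over RFC1. POLE2 over POLE was 0.277, 0.286 and 0.292 with GSK591 and 0.315, 0.326 and 0.290 with vehicle at 24 h, and PCNA over RFC1 was 4.37, 4.93 and 4.41 with GSK591 and 4.87, 5.28 and 4.94 with vehicle. In vehicle alone all 3 of these ratios were lower on average at 96 h than at 24 h, with 2.99 ± 0.388 at 96 h and 5.03 ± 0.221 at 24 h for PCNA over RFC1 (SD, n = 3 each). CDC45 over MCM7 was 0.0316, 0.0478 and 0.0349 with GSK591 and 0.0741, 0.0804 and 0.0736 with vehicle at 96 h, and 0.0689, 0.0655 and 0.0670 with GSK591 and 0.0769, 0.0777 and 0.0762 with vehicle at 24 h. CDC6 over GMNN, a loader against an inhibitor of loading, was 0.158, 0.191 and 0.152 with GSK591 and 0.242, 0.247 and 0.239 with vehicle at 96 h, and 0.309, 0.315 and 0.324 with GSK591 and 0.328, 0.351 and 0.334 with vehicle at 24 h. Neither of these pairs overlapped between the groups at either time. Because all 5 pairs were picked on their values, a lack of overlap among them is no support for a split. The share of other gene pairs without overlap was not counted.

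**Figure D3:**
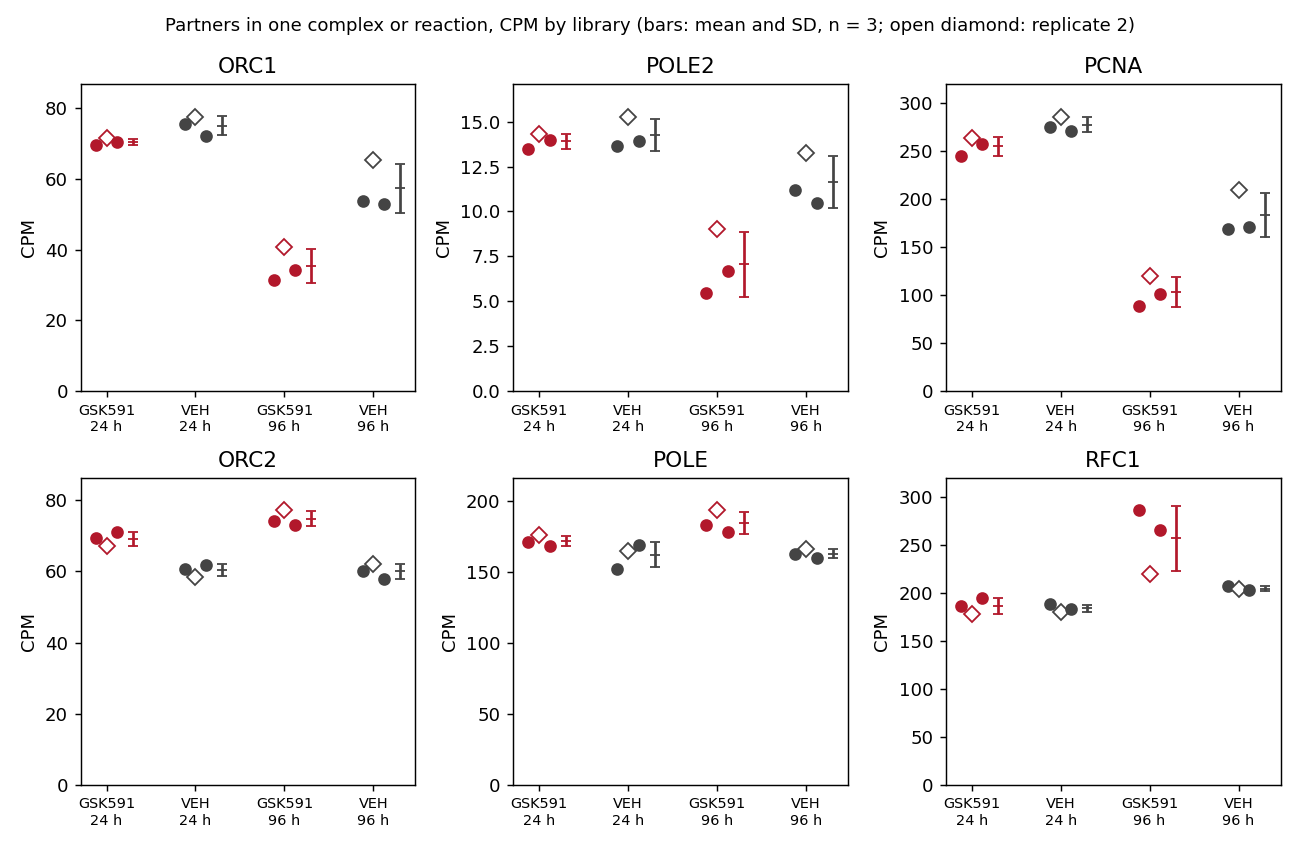
CPM in each library (y axis) of 3 pairs of partners in the 4 groups (x axis): ORC1 and ORC2, POLE2 and POLE, PCNA and RFC1, with the mean and SD of 3 libraries beside the points and open diamonds for replicate 2. At 96 h the upper gene of each pair is lower and the lower gene higher in GSK591-treated cells than in vehicle-treated cells.

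Levels between genes can be compared roughly per kb of exon, with exon lengths from GENCODE (GRCh38), and on that scale the members spanned a wide range. The lengths cover all annotated exons of a gene, which may exceed the transcript expressed here. In GSK591-treated cells at 96 h the helicase core lay between 33.3 (MCM5) and 130.4 CPM per kb (MCM3), against 53.3 and 198 CPM per kb in vehicle-treated cells. MCM7 was next to MCM3 in both, with 121 CPM per kb with GSK591 and 151 CPM per kb with vehicle. PCNA had 70.2 CPM per kb with GSK591 and 125 CPM per kb with vehicle at 96 h. CDC45 was among the lowest, at 4.70 CPM per kb with GSK591 and 11.5 CPM per kb with vehicle. Within ORC at 96 h, ORC5 and ORC2 were the highest in GSK591-treated cells (19.0 and 17.3 CPM per kb), whereas ORC1 and ORC6 were the highest in vehicle-treated cells (18.2 and 17.7 CPM per kb). ORC4 was the lowest ORC gene on this scale in both (3.75 CPM per kb with GSK591 and 3.70 CPM per kb with vehicle), and had the longest exon length in ORC (6.88 kb). In plain CPM at 96 h, ORC4 and ORC3 had 25.8 and 23.0 with GSK591 and 25.4 and 26.5 with vehicle.

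The replicate 2 libraries at 96 h stood apart from the others. GSK591 replicate 2 was the highest of its group for 35 of the 47 members and vehicle replicate 2 for 45 of the 47, with median log2 ratios to the mean of the other libraries of 0.20 and 0.21. At 24 h replicate 2 was also the highest for 33 of 47 members with GSK591 and 29 of 47 with vehicle, with smaller median ratios of 0.04 in both groups. The same-numbered pair of libraries gave a median log2 ratio of GSK591 over vehicle of -0.50 in replicate 2, -0.64 in replicate 1 and -0.49 in replicate 3, with 42, 41 and 39 of the 47 members below 0. Shares over all genes were not counted for these library-by-library values, so they cannot be called particular to the members. Without both replicate 2 libraries, 38 members were called lower and 4 higher at 96 h, with a median of -0.55, while 30.2% of 13566 genes were called lower and 30.2% higher. CDC7, ORC3, ORC6, RFC4 and TIMELESS were then called lower, and no call was lost. CDC45 was -1.48 ± 0.07 SE on the log2 scale in that fit, and ORC5 was 0.49 ± 0.05 SE. What sets replicate 2 apart at 96 h is not given in the labels, and its part in the results beyond these values was not tested.

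**Figure D4:**
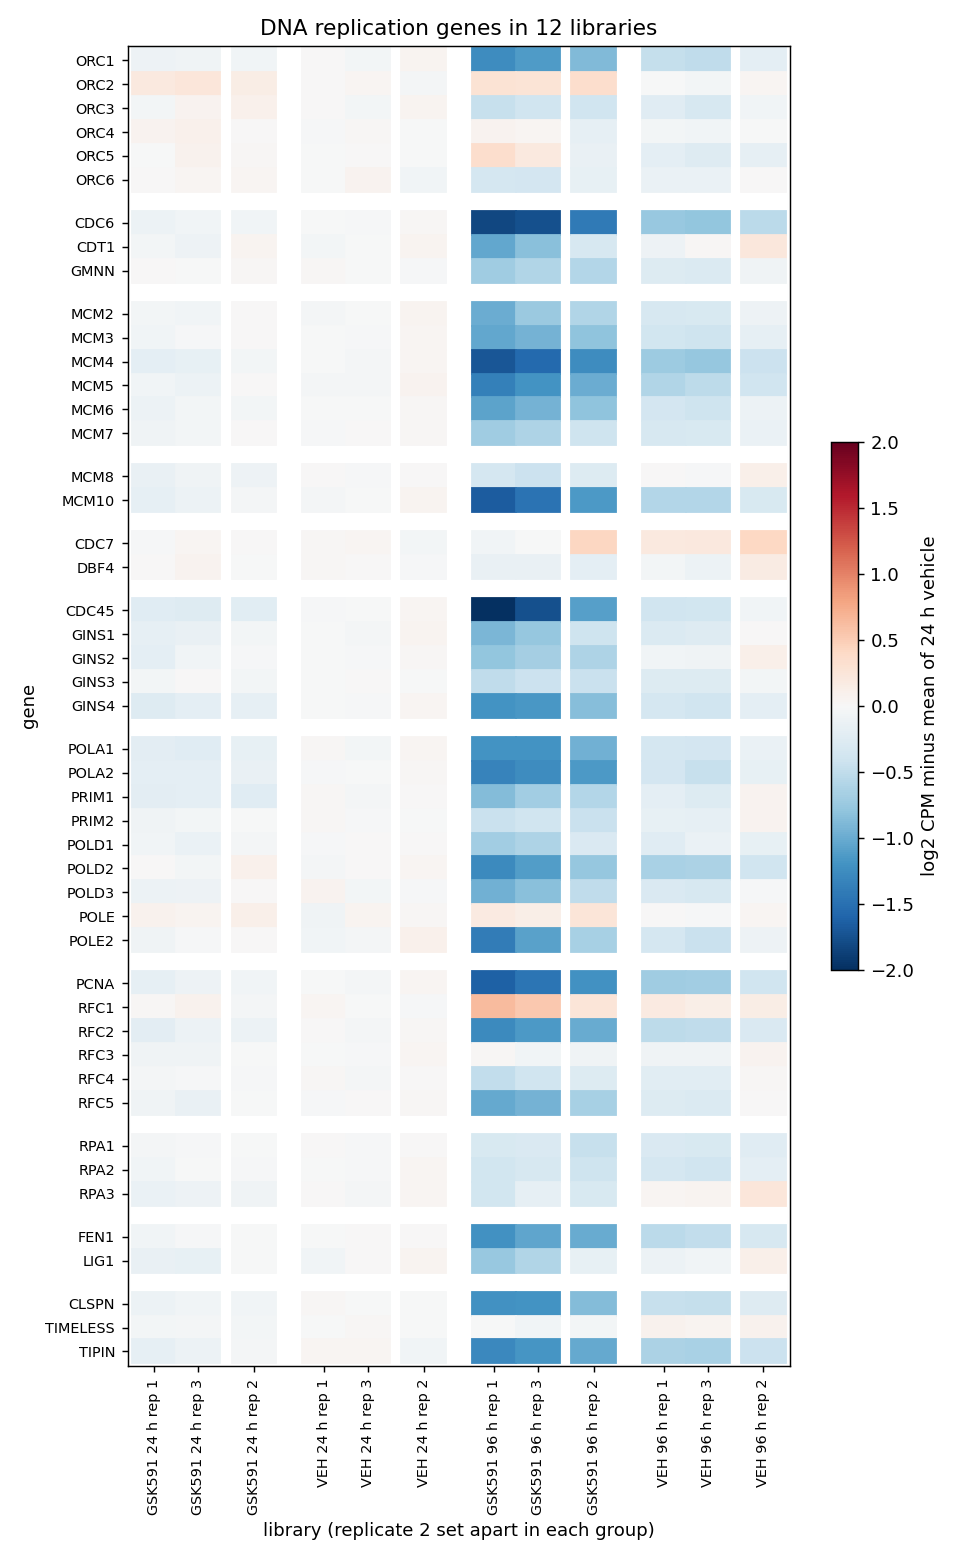
Log2 CPM of the 47 DNA replication genes (rows) in the 12 libraries (columns, replicate 2 set apart in each group), relative to the mean of the 24 h vehicle libraries; blue is lower and red is higher. The GSK591 libraries at 96 h are blue for most genes, replicate 2 is paler than replicates 1 and 3 for most genes in both 96 h groups, and ORC2, POLE and RFC1 are pale red with GSK591 at 96 h.

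The change in the drug effect between the times was tested directly, as the 96 h effect minus the 24 h effect in 1 fit of all 12 libraries. For 29 members the effect was more negative at 96 h and for 1 (RFC1) more positive, while 13.2% of 13665 genes were called more negative and 11% more positive. The median difference was -0.42 over the members and -0.01 over all genes. The 3 most negative differences were those of CDC45 (edgeR difference -1.03 ± 0.22 SE, adjusted p = 0.00553), CDC6 (edgeR difference -0.87 ± 0.12 SE, adjusted p = 0.000639) and MCM10 (edgeR difference -0.80 ± 0.14 SE, adjusted p = 0.00254). The 3 most positive were those of ORC5 (edgeR difference 0.32 ± 0.12 SE, adjusted p = 0.0756), RFC1 (edgeR difference 0.31 ± 0.10 SE, adjusted p = 0.0392) and ORC2 (edgeR difference 0.12 ± 0.06 SE, adjusted p = 0.150). RFC1 lost its call without any 1 of 11 libraries and kept it without GSK591 replicate 2 at 96 h, with adjusted p between 0.0509 and 0.101 where it was lost. MCM7, GINS1, POLD1 and LIG1 fell at 96 h, and their differences did not pass (-0.27, -0.38, -0.26 and -0.35). For ORC2, whose rise was called at both times, the difference of 0.12 ± 0.06 SE did not pass.

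**Figure D5:**
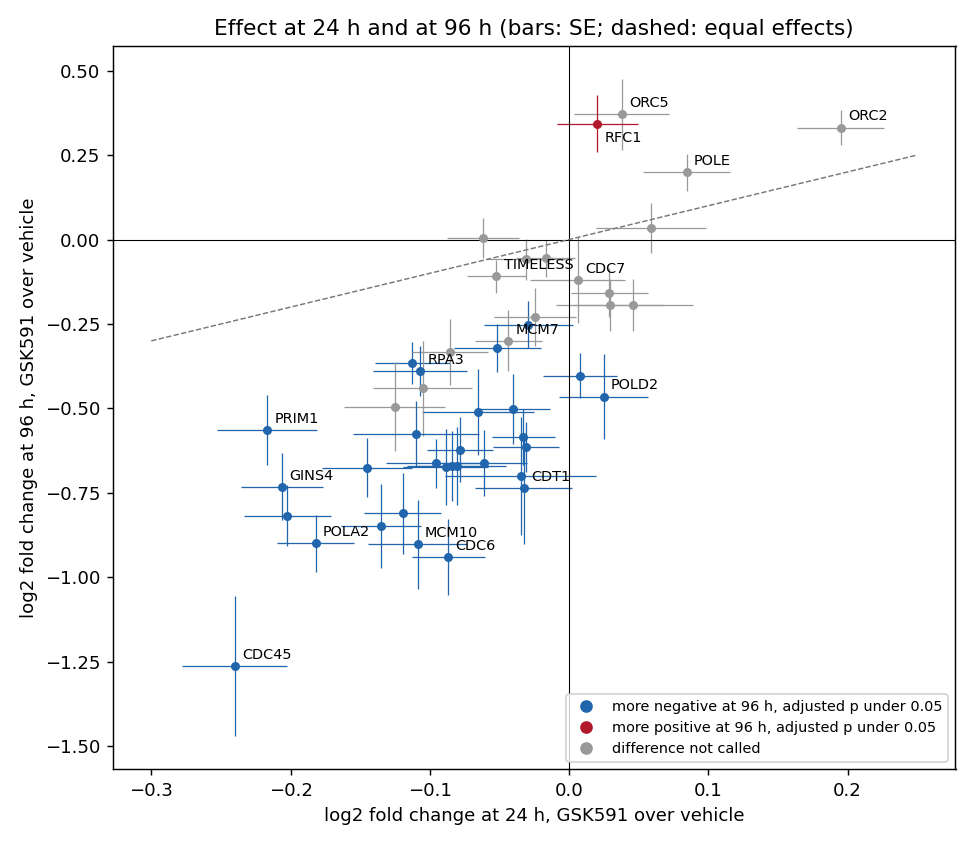
Log2 fold change of GSK591 over vehicle at 24 h (x axis) and at 96 h (y axis) for the 47 DNA replication genes, with bars for the standard error; colour gives the call of the difference between the times and the dashed line marks equal effects. Most members lie below the line, CDC45 lowest, and ORC2, ORC5, POLE and RFC1 lie above 0 at 96 h.

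Vehicle-treated cells also differed between 96 h and 24 h, with 23 members lower and 1 higher (CDC7) at 96 h, while 23.5% of 13665 genes were called lower and 24.2% higher. The median over the members was -0.22. The most negative were CDC6 (-0.69 ± 0.08 SE), MCM4 (-0.64 ± 0.10 SE), PCNA (-0.60 ± 0.09 SE), TIPIN (-0.57 ± 0.07 SE) and POLD2 (-0.56 ± 0.10 SE). The time in culture and any batch of the times cannot be told apart, and this comparison shares the 96 h vehicle libraries with the effect of GSK591 at 96 h. Values of both are therefore set side by side only. CDT1, GINS2 and MCM8 had -0.74, -0.66 and -0.37 with GSK591 at 96 h, and 0.05, -0.02 and 0.03 in vehicle over time, where none of them was called. RPA1 and RPA2 had -0.06 and -0.06 with GSK591 at 96 h, where neither was called, and -0.29 and -0.31 in vehicle over time, where both were called lower. CDC7 was 0.27 ± 0.10 SE in vehicle over time (edgeR adjusted p = 0.0379), a call that was lost without any 1 of 5 vehicle libraries and kept without replicate 1 of 96 h (without vehicle replicate 2 of 96 h, adjusted p = 0.148).

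A list of 28 other replication genes (among them origin firing factors, accessory polymerase subunits, RNase H2, alternative clamp loaders, topoisomerases and chromatin assembly factors) was counted beside the members. At 96 h 15 fell and 1 rose by edgeR, with a median of -0.30, and 2 were higher at an unadjusted p under 0.05 and 2 by DESeq2. Of all genes tested at 96 h, edgeR called 19.6% lower and 20.7% higher, and DESeq2 called 2914 of 13514 higher. At 24 h 10 fell and none rose by edgeR (3 were higher at an unadjusted p under 0.05, and 0 by DESeq2). Of all genes tested at 24 h, edgeR called 7.29% lower and 7.44% higher, and DESeq2 called 792 of 13173 higher. The shares of all genes at the unadjusted p were not counted. DONSON, a factor for helicase assembly, had 18.8, 21.8 and 19.6 CPM in the GSK591 libraries and 32.1, 37.1 and 30.6 CPM in the vehicle libraries at 96 h. It was low in every GSK591 library (edgeR log2 fold change -0.71 ± 0.09 SE, adjusted p = 0.00115), and likewise at 24 h (edgeR log2 fold change -0.30 ± 0.04 SE, adjusted p = 7.78e-05), where it had 27.0, 28.8 and 29.3 CPM in the GSK591 libraries and 35.6, 35.8 and 33.6 CPM in the vehicle libraries. ASF1B, a histone chaperone used at forks, had 54.3, 61.2 and 59.3 CPM in the GSK591 libraries and 81.3, 93.4 and 82.9 CPM in the vehicle libraries at 96 h, with no overlap (edgeR log2 fold change -0.54 ± 0.07 SE, adjusted p = 0.00128). POLD4, the small subunit of polymerase delta, had 85.8, 88.6 and 79.8 CPM in the GSK591 libraries and 101, 103 and 99.8 CPM in the vehicle libraries at 24 h, without overlap (edgeR log2 fold change -0.25 ± 0.03 SE, adjusted p = 4.60e-05). At 96 h POLD4 had 92.6, 116 and 105 CPM in the GSK591 libraries and 118, 112 and 127 CPM in the vehicle libraries, which overlapped (edgeR log2 fold change -0.17 ± 0.09 SE, adjusted p = 0.149). TOPBP1, a scaffold for origin firing and checkpoint signalling, was the 1 gene of this list called higher at 96 h by edgeR with the adjusted p. It had 216, 211 and 204 CPM in the GSK591 libraries and 188, 195 and 184 CPM in the vehicle libraries at 96 h, with no overlap (edgeR log2 fold change 0.16 ± 0.05 SE, adjusted p = 0.0321). At 24 h TOPBP1 had 216, 216 and 215 CPM in the GSK591 libraries and 211, 207 and 207 CPM in the vehicle libraries (edgeR log2 fold change 0.05 ± 0.02 SE, adjusted p = 0.145).

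In the authors' deposited tables, 33 members were lower and 4 higher at 96 h at an FDR under 0.05, with the same call as here for 47 of 47 members. At 24 h the authors' deposited table had 20 members lower and 1 higher, with the same call as here for 43 of 47. The authors' values rest on the same 12 libraries, so like calls are no independent support. Their shares of calls over all genes were not counted. The members called higher in the authors' deposited tables were ORC2 at 24 h, and ORC2, ORC5, POLE and RFC1 at 96 h.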

How the data were processed

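RNA from 12 samples of SUDHL6 cells was poly(A)-selected and made into TruSeq libraries, per the labels' protocols. The authors deposited raw read counts per gene symbol in 1 table a time. They also deposited tables of log2 fold changes, log2 average CPM, p-values and false discovery rates. STAR, HTSeq, edgeR and the builds hg19 and GRCh37 are named in the submitters' processing notes; no version, annotation, strand setting or filter is stated there or in the labels, so reads of overlapping genes cannot be told apart. Each time was fitted here on its 6 samples with edgeR 4.0.16 (limma 3.58.1, R 4.3.3): TMM scaling, filterByExpr, quasi-likelihood F-test, Benjamini-Hochberg adjustment over all genes tested, threshold 0.05. The difference between times and vehicle over time used 1 fit of all 12. SE is the size of the log2 fold change divided by the square root of F. Printed CPM come from 1 TMM scaling of the 12 libraries, so their ratios can differ slightly from the fitted fold changes. DESeq2 1.42.0, other scalings and filters, a replicate block and leaving out libraries were alternatives. The fits were tested on simulated data. A simulated 1.2-fold change was recovered for 66 of 67 genes at 24 h and 7 of 67 at 96 h. A 1.5-fold change was recovered for 67 of 67 and 59 of 67. A gene not called at 96 h may thus still differ by a small amount. Replicate pairs differed by more than counting noise (chi-square per degree of freedom 2.20 to 39.8 over 12 pairs), so all were kept. Values per library are given for the most and least negative member of each sub-group at 96 h, every member called higher, and the 3 most negative and positive in the difference; of the other replication genes, for the 2 with the smallest p at each time and any called higher. POLE2 in the partner plot and the ratio pairs were chosen after values were seen. The members and lists were chosen with earlier results of these data known. Promoters are RefSeq GRCh38.p14 and exon lengths GENCODE GRCh38, another build than the files', matched by symbol.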

Additional observations from a re-analysis of the deposited data

Results flagged for a closer look

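For 30 of the 47 DNA replication genes the effect of GSK591 differed between 96 h and 24 h in edgeR's test of the difference itself (adjusted p under 0.05 over all genes tested). Of all 13665 genes tested, 13.2% were called more negative and 11% more positive. The values are the 96 h effect minus the 24 h effect on the log2 scale. For the origin recognition gene it was -0.60 (ORC1). Within the licensing factors the differences were -0.87 (CDC6), -0.72 (CDT1) and -0.42 (GMNN). The helicase core had -0.48 (MCM2), -0.57 (MCM3), -0.73 (MCM4), -0.61 (MCM5) and -0.56 (MCM6). Within the other MCM genes the differences were -0.27 (MCM8) and -0.80 (MCM10). CDC45 and GINS had -1.03 (CDC45), -0.58 (GINS2), -0.24 (GINS3) and -0.54 (GINS4). Within the polymerases and primase the differences were -0.63 (POLA1), -0.73 (POLA2), -0.36 (PRIM1), -0.28 (PRIM2), -0.50 (POLD2), -0.46 (POLD3) and -0.67 (POLE2). The clamp and its loader had -0.71 (PCNA), 0.31 (RFC1), -0.54 (RFC2) and -0.60 (RFC5). For RPA it was -0.29 (RPA3). For the flap nuclease it was -0.60 (FEN1). Within fork protection the differences were -0.60 (CLSPN) and -0.48 (TIPIN). RFC1 was the 1 gene called with a more positive effect at 96 h. PRIM1 lost its call without any 1 of 9 libraries, POLD3 without any 1 of 8 and GINS3 without any 1 of 7. CDC45, CDC6 and MCM10 kept theirs without each library in turn.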

How the results depend on the processing

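No member changed direction while called under any alternative, and every scaling moved the median of all genes by less than 0.1 on the log2 scale. At 96 h, 25 of the 33 lower and 1 of the 4 higher calls held in all 15 settings, and 22 of 29 more negative effects in all 20 settings of the difference. For 24 h, 1 fit of all 12 libraries called 29 genes, 0 members lower and 0 higher, and DESeq2 called 12 members lower and 1 higher; 2 members were higher with no filter. Without the replicate 2 libraries of 96 h, 8201 genes were called at 96 h, and 6022 genes and 2 more positive members in the difference, which had 2 also with library size alone. For vehicle over time, the members called higher were 4 with library size alone, 3 with a filter of 5 CPM in 3 samples, 2 with DESeq2 and 0 without replicate 2 of 96 h. Library size alone called 563 genes higher and 1220 lower at 24 h (980 and 960 with TMM), and 4167 higher and 2503 lower for vehicle over time (3309 and 3207 with TMM). Leaving out each library in turn gave at 24 h 980 to 2208 genes, 7 to 24 members lower and 1 to 2 higher; at 96 h 3438 to 7485 genes, 25 to 37 lower and 2 to 4 higher; for the difference 1991 to 5712 genes, 22 to 37 more negative and 0 to 2 more positive; and for vehicle over time 5051 to 6679 genes, 20 to 30 lower and 0 to 1 higher. The lowest and highest gene counts of the difference came without GSK591 replicate 2 of 24 h and of 96 h, and 96 h counts of 3438 and 3507 genes without GSK591 replicate 1 and vehicle replicate 2. LIG1 missed the threshold at 96 h with the 5 CPM filter (adjusted p = 0.0502). Deviations of same-numbered libraries had r of 0.03, 0.26 and 0.06 at 24 h and 0.47, 0.32 and 0.02 at 96 h, across genes. Libraries of unlike number had r from -0.15 to 0.09 at 24 h and from -0.45 (GSK591 replicate 1 with vehicle replicate 2) to 0.28 at 96 h. The main fits did not take the numbers as pairs. With the replicate number as a block, 21 members were lower and 2 higher at 24 h, 36 and 4 at 96 h, and 36 and 2 in the difference. Calls over all genes rose as well with the block. They went from 1940 to 2811 at 24 h, from 5437 to 6293 at 96 h and from 3298 to 4323 in the difference. Thinning vehicle replicate 1 of 96 h to the median depth of the others changed no count by over 1.5 times.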
